A study of Bos taurus with 56 samples.

Results

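The 5 bovine genes described here, known by their Ensembl IDs, were near 0 counts in muscle RNA of some bulls and counted in that of others. They are 5 of the 20791 genes listed in the deposited tables, and they were chosen by ID as near 0 in some animals and counted in others, so their levels are given as a description. That account holds unevenly: ENSBTAG00000034077 and ENSBTAG00000045987 divided the animals most clearly, ENSBTAG00000038893 never passed 14 counts in a library, and ENSBTAG00000047768 was often at 0 in 1 library of an animal and well counted in another. The RNA came from a long muscle that runs beside the spine, the Longissimus dorsi, of bulls of 2 southern African breeds: the Nguni, a Sanga breed, and the Bonsmara, which has Sanga ancestry. All bulls were fed in a feedlot for 120 days, on a high energy diet (12.0 MJ of metabolizable energy per kg) or a low energy diet (10.9 MJ per kg), and each diet and breed makes 1 group. The labels give no age and no untreated group. Library titles join a stem and a number (B6_1), and each stem is taken to be 1 bull. The labels are silent on this, and if it is wrong the spread between stems may be technical.

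Counts were analysed for 42 libraries of 14 stems, with 3 libraries per stem. The stems are 3 Bonsmara on high energy (B6, B25, B199), 3 Bonsmara on low energy (B11, B51, B126), 5 Nguni on high energy (N008, N11, N14, N35, N37) and 3 Nguni on low energy (N1, N33, N215). Libraries held 8156040 to 78224599 counts and summed stems 34456677 to 101757197, so that a stem without a single count could still hold up to 0.0295 to 0.0871 CPM (counts scaled to a common library total), the limit that a count of 0 allows for counting error only. Over the whole table the Nguni libraries N008_3 and N215_2 were unlike the rest (154 genes stood at least 8-fold above every other stem in N008 and N215 alone), and leaving them out changed none of the sets of stems given below. The stems N1 and N11 stand in the deposited tables with the other diet than the one labelled, and the labels were followed.

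The deposited tables pair no gene ID with a name, and the RefSeq gene table at hand matched 0 of the 5 IDs, so no function, position or sequence is given for any of them. The muscle label could not be checked against marker genes for the same reason. As background, animals of an outbred species differ in the number of copies of some genes, and the genes of the major histocompatibility complex are a well-known case in cattle. Programs that assign reads to transcripts by likelihood, such as Salmon, divide reads among near-identical copies, and an allele that differs much from the reference can receive few reads. Whether any of this holds for these 5 genes was not tested.

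Each stem was said to hold a gene at 0.1 CPM or more, after its 3 libraries were summed and scaled by TMM (trimmed mean of M values). On that rule ENSBTAG00000038893 was held by 10 stems, ENSBTAG00000034077 by 9, ENSBTAG00000027962 by 7, ENSBTAG00000047768 by 6 and ENSBTAG00000045987 by 4. None of the 5 was held by every stem, and every stem held at least 1 of them. The 14 stems showed 12 different sets of held genes, and only 2 sets occurred in more than 1 stem: ENSBTAG00000034077 with ENSBTAG00000027962 in B11 and B199, and ENSBTAG00000038893 with ENSBTAG00000045987 in N14 and N35. The fewest were held by N008, with 1 gene, and 4 genes each were held by B25, N33 and N37. These sets depend on the threshold. At 0.5 CPM B51 held the same set as B11 and B199, and N14 and N35 no longer shared a set.

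**Figure D1:**
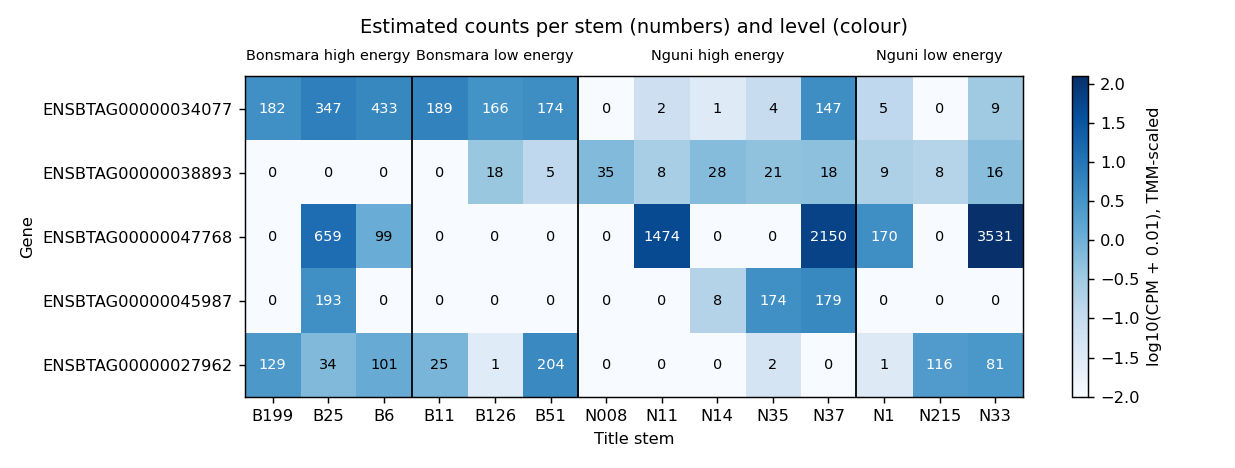
Estimated counts of the 5 genes (rows) in the 14 title stems (columns), with 3 libraries summed; the number is the count and the colour is log10 of TMM-scaled CPM plus 0.01. At 0.1 CPM or more, the first row is held by all 6 Bonsmara stems and by N37, N33 and N1, the last 2 with 9 and 5 counts. The second row is held by all 8 Nguni stems and by B126 and B51, the latter with 5 counts. The fourth row is held on high energy only.

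The clearest division by breed was that of ENSBTAG00000034077, which was higher in the Bonsmara. All 6 Bonsmara stems lay between 3.37 and 6.88 CPM (4.88 ± 1.38, SD, n = 6). Of the 8 Nguni stems, 7 lay between 0 and 0.315 CPM, and the other, N37, was at 4.04 CPM, inside the Bonsmara range. No stem lay between 0.315 and 3.37 CPM. The low Nguni stems had 0 counts in N008 and N215, 1 in N14, 2 in N11, 4 in N35, 5 in N1 and 9 in N33, of which N1 and N33 passed 0.1 CPM and neither passed 0.5 CPM.

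Library by library, ENSBTAG00000034077 had 57, 50 and 82 counts in B11, 52, 78 and 36 in B126, and 46, 59 and 69 in B51. On high energy the Bonsmara libraries had 55, 82 and 45 counts in B199, 128, 102 and 117 in B25, and 314, 89 and 30 in B6. The stem N37 had 62, 46 and 39 counts. Every library of these 7 stems thus counted the gene, at 2.77 to 8.04 CPM on unscaled totals. At 0.5 CPM per library the 3 libraries fell on the same side in all 14 stems, and at 0.1 CPM in 10 of them. The 4 that were split, N1, N11, N33 and N35, were low Nguni stems with at most 7 counts in any library. Diet did not divide this gene: the Bonsmara means were 5.27 ± 1.53 CPM on high and 4.49 ± 1.40 CPM on low energy (SD, n = 3 each), with overlapping values.

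**Figure D2:**
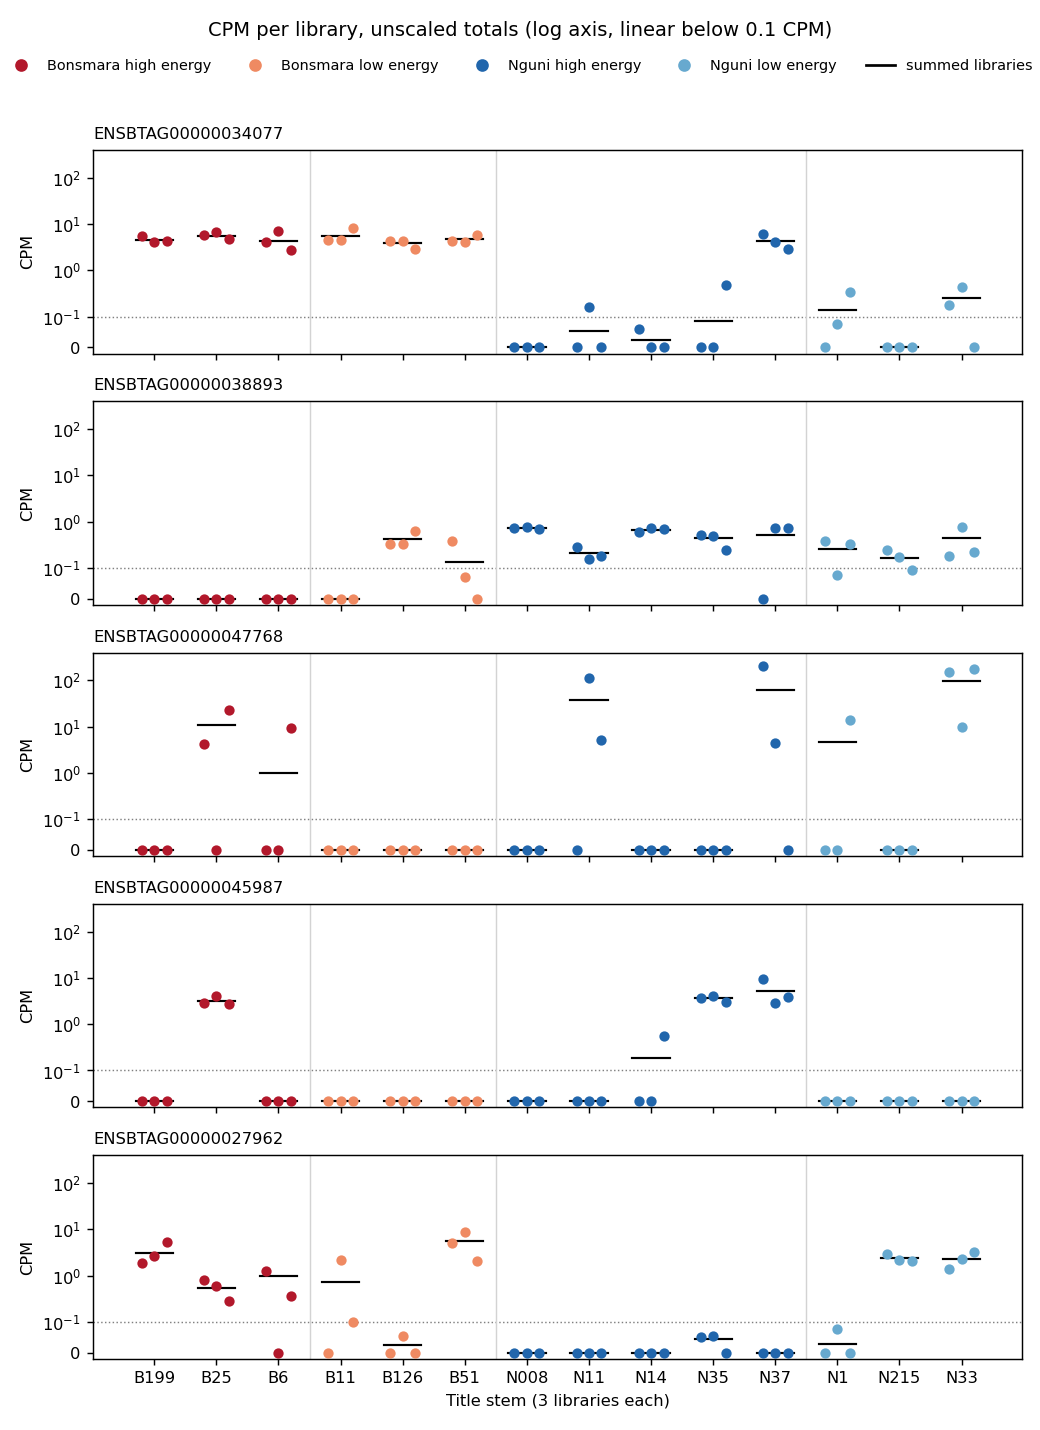
CPM of each library on unscaled totals (points, coloured by group) and of the summed libraries of a stem (black lines) for the 5 genes, on a log axis that is linear below 0.1 CPM (dotted line). In stems with ENSBTAG00000034077 or ENSBTAG00000045987 at 0.5 CPM or more, all 3 libraries counted the gene, with some spread. The former ran from 2.77 to 7.01 CPM in B6 and the latter from 2.82 to 9.42 CPM in N37. For ENSBTAG00000047768 libraries at 0 and above 100 CPM stand side by side in N11 and N37.

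The opposite breed had more of ENSBTAG00000038893, the least abundant of the 5. It was counted in all 8 Nguni stems, at 0.159 to 0.639 CPM (0.420 ± 0.188, SD, n = 8), and in 2 of the 6 Bonsmara, B126 at 0.366 and B51 at 0.116 CPM. The other 4 Bonsmara, among them all 3 on high energy, had 0 counts in each of their 12 libraries, although B6_1 was the deepest library of all at 78224599 counts. The values of the breeds overlapped, since B126 lay above 3 Nguni stems. On the high energy diet they did not overlap, with the 5 Nguni at 0.253 to 0.639 CPM (0.487 ± 0.151, SD, n = 5). The gene was chosen for such values, and the share of all genes divided in this way is not known here. Nothing is therefore read from this.

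Counts of ENSBTAG00000038893 were low wherever it was found, at most 14 per library. The highest were 12, 9 and 14 in N008 and 10, 8 and 10 in N14. In the Bonsmara, B126 had 4, 6 and 8 counts, one set above the 4, 1 and 0 of B51. A single library at 0 occurred in B51 and in N37, which had 0, 8 and 10. At these counts the division between stems that hold the gene and stems that do not rests on few reads: 6 stems had at least 10 counts and 3 reached 0.5 CPM, in place of the 10 that passed 0.1 CPM.

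**Figure D3:**
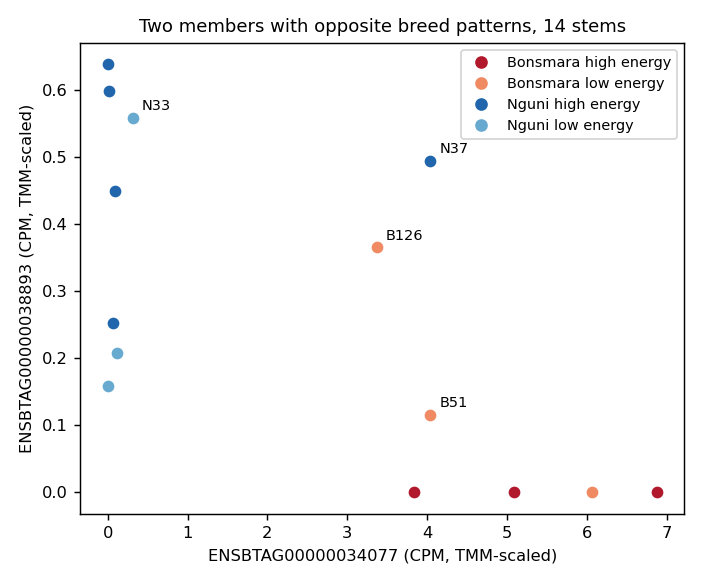
Level of ENSBTAG00000034077 (x axis) against ENSBTAG00000038893 (y axis) in 14 stems, both in TMM-scaled CPM, coloured by group. The Bonsmara stems lie to the right at 3.37 to 6.88 CPM of the first gene and 7 of 8 Nguni at the left at 0 to 0.315 CPM; N37, B126 and B51 lie above 3 CPM of the first gene and above 0 of the second, and N33 and N1 hold both genes at 0.1 CPM or more on the left side.

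At 0.1 CPM no stem had neither of these genes, and 5 held both. Of these, N1 and N33 had 5 and 9 counts of ENSBTAG00000034077, and B51 had 5 counts of ENSBTAG00000038893. At 0.5 CPM no stem held both genes, and N1, N11, N215 and N35 held neither. Across the 14 stems, which share the breed difference, log2(CPM + 0.1) of both correlated at r = -0.65. N37 held ENSBTAG00000034077 at a Bonsmara level and ENSBTAG00000038893 at 0.495 CPM, close to the middle of the Nguni. It had 0 counts of ENSBTAG00000027962, as had 3 other Nguni on high energy, whereas all 6 Bonsmara had at least 1 count of that gene.

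Both breeds were mixed for ENSBTAG00000027962, with 5 of 6 Bonsmara and 2 of 8 Nguni stems holding it. In the Bonsmara it ran from 0.0203 CPM in B126, which is a single count, to 4.74 CPM in B51. All 5 Nguni on high energy lay at 0 to 0.0428 CPM, where the highest value is 2 counts in N35. Among the 3 Nguni on low energy, N215 was at 2.31 and N33 at 2.83 CPM, and N1 was at 0.0231 CPM. The 2 Nguni stems that held the gene were thus both labelled low energy, and any division of the Nguni by diet rests on these 2. The other Nguni stem with that label, N1, is placed by the tables with the high energy Nguni. If N1 and N11 are placed as in the tables, N11 is the low energy stem without the gene, at 0 CPM. In the Bonsmara the diets overlapped, with 1.53 ± 1.06 CPM on high and 1.85 ± 2.53 CPM on low energy (SD, n = 3 each).

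Libraries of a stem did not always agree on ENSBTAG00000027962. The Nguni stems gave 47, 25 and 44 counts in N215 and 15, 36 and 30 in N33, and B199 gave 19, 54 and 56. In B11, however, the counts were 0, 24 and 1, from libraries of 10196620 to 12931415 counts in total. In B6 they were 97, 0 and 4, where the library with 97 was also the deepest. At 0.1 CPM per library the libraries of 12 stems were on the same side, and those of B11 and B6 were not. One count or none was seen in every library of the 7 stems that did not hold the gene.

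High energy was the diet of every stem with ENSBTAG00000045987. It was at 3.83 CPM in the Bonsmara stem B25 and at 3.73 and 4.92 CPM in the Nguni stems N35 and N37, and in N14 it was at 0.171 CPM. All 6 stems on low energy had 0 counts in all their libraries, and so had the other 4 on high energy. No group was filled by this gene: 1 of 3 Bonsmara and 3 of 5 Nguni on high energy held it, and the 4 stems without it overlapped the low energy stems at 0. With the tables' placing of N1 and N11 the pattern is the same, because both had 0 counts.

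Its libraries agreed in 13 of 14 stems under every threshold per library tried. In 10 of these the agreement is that of 0 counts in every library, and in 3 all libraries counted the gene. B25 had 65, 61 and 67 counts, N35 had 72, 77 and 25, and N37 had 95, 31 and 53. The low value in N35 came from its shallowest library, with 8156040 counts, and the 3 libraries of N35 lay at 3.07 to 4.12 CPM on unscaled totals. Those of N37 lay further apart, at 2.82 to 9.42 CPM. In N14 all 8 counts came from 1 library, N14_3, and the others had 0. The gene was thus seen in 3 stems once at least 10 counts were required.

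For ENSBTAG00000047768 the libraries of a stem mostly did not agree, and 5 of the 6 stems that held it were split. It was held by 6 stems, B25, B6, N1, N11, N33 and N37, from both breeds and both diets, at 1.16 to 123 CPM, and by none of the Bonsmara on low energy. Only in N33 did all 3 libraries count it, with 1715, 156 and 1660 counts. In N37 the counts were 2102, 48 and 0, in N11 they were 0, 1415 and 59, and in B25 they were 96, 0 and 563. N1 and B6 had counts in the library numbered 3 alone, 170 and 99. The highest level in a library was 208.4 CPM, in N37_1, beside 4.37 CPM in N37_2.

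Over all libraries, ENSBTAG00000047768 was at 0 in 31 and between 48 and 2102 counts in 11, with no library between. The depths of the 2 kinds of library overlapped: libraries at 0 had 8156040 to 78224599 counts in total and those with counts 9299546 to 24271882. Counts were found in 3, 3 and 5 libraries whose titles end in 1, 2 and 3. In 5 of the 6 stems, 1 library gave 85.4% to 100% of the gene's counts, with 24.7% to 39.5% of all counts in each library of B25, N1, N11 and N37. Stems with at least 100 counts of a gene seldom had a library at 0: this was so in 0.141% of 120220 pairs of a gene and a stem over the whole table, in 4 of 5 stems for ENSBTAG00000047768, in 0 of 7 for ENSBTAG00000034077, in 0 of 3 for ENSBTAG00000045987 and in 1 of 4 for ENSBTAG00000027962.

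**Figure D4:**
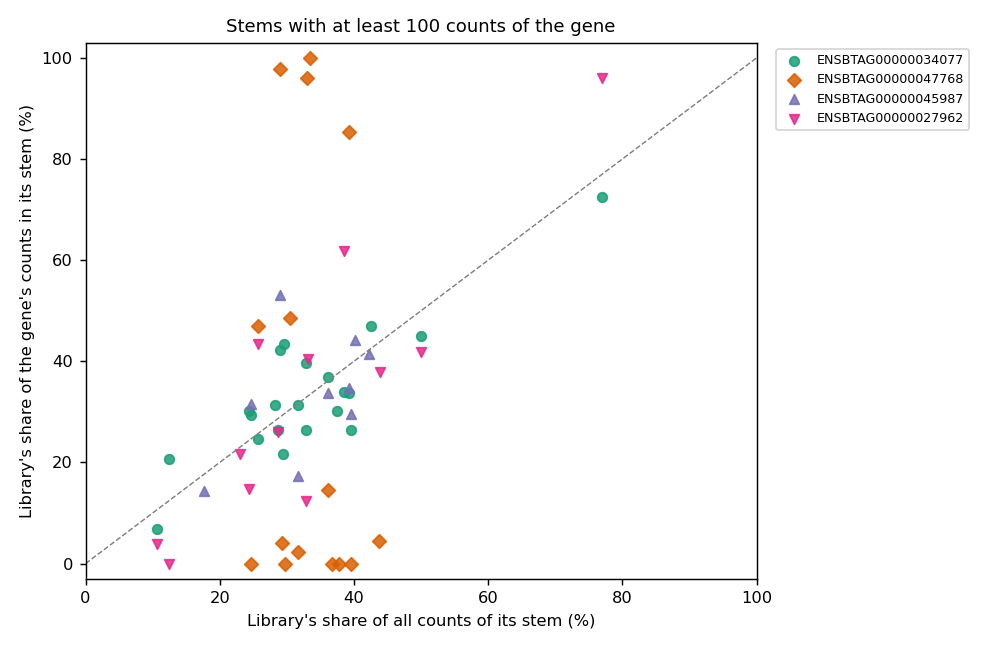
Share of a gene's counts in a stem that each library gave (y axis, percent) against the library's share of all counts of that stem (x axis, percent), for stems with at least 100 counts of the gene; the dashed line marks equal shares. Points of ENSBTAG00000047768 lie at 14.6% or less or at 85.4% or more, except in N33, while those of ENSBTAG00000034077 and ENSBTAG00000045987 follow the line more closely.

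Breeds and diets were also compared by edgeR's quasi-likelihood test over 13219 genes that passed the low-count filter, all 5 among them. These 5 were noted in earlier results of the same contrasts, so the values are no independent evidence. Of the genes tested, 0% were called for breed averaged over diets and 0% for diet averaged over breeds at an adjusted p under 0.05 (0 genes each, with 1144 and 434 at an unadjusted p under 0.05), and none of the 5 was called. For breed, ENSBTAG00000034077 had a log2 fold change of -3.88 (Nguni over Bonsmara, SE 1.11, edgeR adjusted p = 0.569), lower in 7 of 8 Nguni than in every Bonsmara. Without N37 the value was -6.02 (edgeR adjusted p = 0.00283), and it was the only gene called, 0.00759% of those tested. N37 is the 1 Nguni stem at a Bonsmara level of this gene, so leaving it out takes away the exception. No gene was called for breed when any other stem was left out. ENSBTAG00000027962 had -3.56 for breed (SE 1.06, edgeR adjusted p = 0.569) and -3.73 for diet (high over low energy, SE 1.06, edgeR adjusted p = 0.999). Without B51 these values were -2.46 and -2.62. Without N35, whose 2 counts are the only ones among the Nguni on high energy, they were -4.62 and -4.80. The fit without N35 has a group at 0 in every library, where the fold depends on edgeR's prior count. Nothing is therefore read from the larger folds. The gene passed the test in none of these fits.

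The other 3 genes were at 0 in every library of at least 1 group, where a fold fitted by edgeR depends on the prior count, so nothing is read from their folds. By edgeR, ENSBTAG00000038893 and ENSBTAG00000047768 each had an adjusted p of 0.569 for breed. For diet, the edgeR adjusted p was 0.999 for ENSBTAG00000038893 and for ENSBTAG00000045987. DESeq2 called 14 genes for breed (0.107% of those tested), and these included ENSBTAG00000038893 (adjusted p = 0.00425) and ENSBTAG00000047768 (adjusted p = 0.00313). The latter had overlapping breeds, with 4 of 6 Bonsmara and 4 of 8 Nguni at 0. For diet, DESeq2 called ENSBTAG00000045987 alone (adjusted p = 1.4e-09, 0.00767% of those tested), a gene at 0 in 4 of the 8 stems on high energy. The DESeq2 folds of these 3 genes also rest on groups at 0, so nothing is read from these p-values either.

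To set the pattern beside the rest of the table, the largest gap between neighbouring stems was taken for each gene on the scale log2(CPM + 0.05), with at least 2 stems on each side. It was 4.60 for ENSBTAG00000047768, 4.09 for ENSBTAG00000045987, 3.23 for ENSBTAG00000034077, 2.96 for ENSBTAG00000027962 and 1.73 for ENSBTAG00000038893. A gap of 3 or more (8-fold) was found in 188 of the 20791 genes, or 0.904%, and in 3 of the 5; the choice of the genes used the same counts, so nothing is read from this. In 154 of the 188 the high side was N008 and N215 alone, the stems of the libraries that stood apart, which leaves 34 genes with another division. The 5 genes ranked 50 to 532 by their gap with all libraries, and 16 to 76 without N008_3 and N215_2, where 31 genes had a gap of 3 or more.

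**Figure D5:**
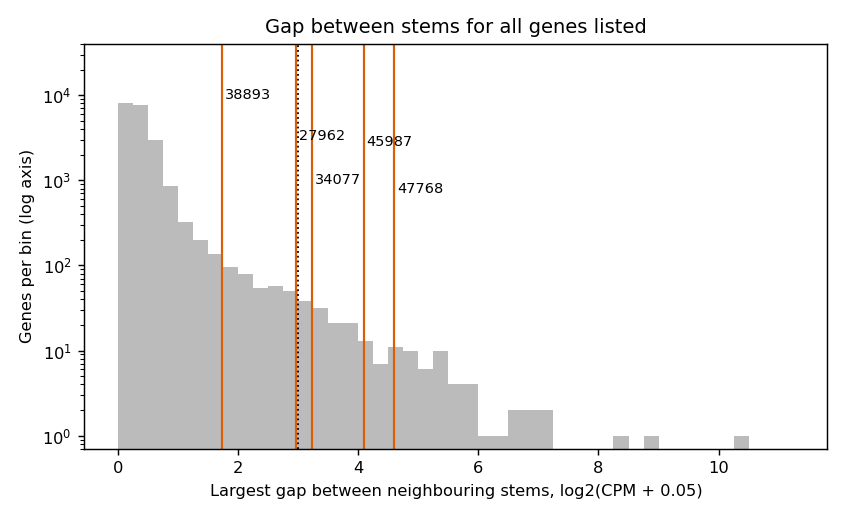
Number of genes (log axis) by the largest gap between neighbouring stems in log2(CPM + 0.05), for all 20791 genes; orange lines mark the 5 genes by the last 5 digits of their ID and the dotted line a gap of 3. ENSBTAG00000047768, ENSBTAG00000045987 and ENSBTAG00000034077 lie past the dotted line, at 4.60, 4.09 and 3.23.

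For each of the 5, the genes most alike over the 14 stems were found by Pearson's r of log2(CPM + 0.1). They were picked for the highest r among all genes that passed the low-count filter. A high r, or levels that do not overlap between stems, can follow from this choice, and nothing is read from either. The nearest to ENSBTAG00000034077 was ENSBTAG00000002041 (r = 0.90), at 3.34 to 4.69 CPM in the 7 low Nguni and 4.92 to 6.30 CPM in the Bonsmara and N37. ENSBTAG00000040580 followed at r = 0.87, with overlapping sides of 5.58 to 7.45 and 7.21 to 9.02 CPM. Both genes were counted in every stem. ENSBTAG00000038893 was most like ENSBTAG00000017253 (r = 0.88) and ENSBTAG00000002858 (r = 0.88), the latter at 0.198 to 3.18 CPM.

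The most alike to ENSBTAG00000047768 were ENSBTAG00000003981 (r = 0.92, 9.40 to 25.1 CPM) and ENSBTAG00000023947 (r = 0.92, 25.2 to 66.1 CPM), both counted in every stem. To ENSBTAG00000045987 they were ENSBTAG00000020824 (r = 0.80) and ENSBTAG00000011500 (r = 0.80), and to ENSBTAG00000027962 they were ENSBTAG00000017830 (r = 0.88) and ENSBTAG00000014270 (r = 0.80). The order depended on the scaling: on unscaled totals ENSBTAG00000002041 fell from the first place to place 21 (r = 0.78), ENSBTAG00000040580 to place 245 (r = 0.64) and ENSBTAG00000003981 to place 34 (r = 0.83), while ENSBTAG00000011500 took the first place (r = 0.79). None of the 10 genes was absent from a stem, so none shared the division into stems with and without counts.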

How the data were processed

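The values are gene-level estimated counts in 4 tables that the authors deposited. Of the tools used to make them, Trimmomatic, FastQC, Salmon and DESeq2 are listed in the submitters' processing notes, without versions. The build, annotation and strand setting were not given in the sources used here. All values were whole numbers, so rounding moved none. Each of the 42 libraries stands in 2 tables with identical values and was taken once. A further 14 labelled samples were not analysed here.

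The 3 libraries of a stem were summed. CPM per stem use TMM-adjusted totals, and CPM per library use unscaled totals. One robust edgeR 4.0.16 quasi-likelihood fit (R 4.3.3) with a mean per breed and diet over 14 stems, 10 residual degrees of freedom and filterByExpr (minimum count 10, 13219 genes kept) was adjusted by Benjamini-Hochberg and tested on simulated data. DESeq2 1.42.0, other size factors, no filter, a fit that is not robust, other thresholds and left-out stems or libraries were alternatives. The SE given with an edgeR fold is the absolute log2 fold change divided by the square root of the test's F statistic. The genes named are the 5 members and, for each, the 2 most alike. Members, thresholds and lists were chosen with earlier results of these data known.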

Additional observations from a re-analysis of the deposited data

Results flagged for a closer look

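In the group of 5 Nguni on high energy, the only one large enough to be screened for single stems far from the rest, 2 values stood far from the others. ENSBTAG00000034077 was at 4.04 CPM in N37, where the other 4 stems lay at 0 to 0.0857 CPM, and all 3 libraries of N37 counted the gene (62, 46 and 39 counts). ENSBTAG00000027962 was at 0.0428 CPM in N35, where the other 4 stems were at 0, and this value is 2 counts. The screen was made for 5 genes that were chosen for values of this kind, so the usual chance rate of about 1 in 20 groups does not apply, and where 4 stems are at 0 any count in the other is marked.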

How the results depend on the processing

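The number of stems that held a gene stayed within 1.5 times the value given for 4 of the 5 genes under every threshold, scaling and set of libraries tried. The numbers within a breed moved more. All 6 Bonsmara held ENSBTAG00000034077 throughout, but the 3 Nguni became 1 at 0.5 CPM and 6 at 1 count or more. For ENSBTAG00000027962 the 2 Nguni became 4 at 1 count or more. For ENSBTAG00000038893 the 10 stems became 3 at 0.5 CPM and 6 at 10 counts or more, because its counts were low. How many stems had libraries on the same side of the threshold moved by less than 1.5 times for all 5 genes. Without N008_3 and N215_2, an alternative chosen after seeing the data, genes with a gap of 3 or more fell from 188 to 31. The edgeR calls for breed, 0 genes, became 1 without N37, with a range of 0 to 1 over the stems left out in turn, and 14 in DESeq2. For diet, 0 became 1 in DESeq2. The log2 fold change of ENSBTAG00000034077 for diet turned from 1.44 to -0.70 without N37 and was at most 2.02, without N33. That of ENSBTAG00000045987 for breed, which depends on the prior count, turned from 0.24 to -0.056 without B199 and -0.053 without B6, and was at most 4.66, without B25. The cause was not tested in these cases. No paired analysis was possible because the numbers in the titles tell libraries of a stem apart and tie no stem to another.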

Other observations

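The counts of ENSBTAG00000038893 were mostly even numbers. Of the 28 libraries with a count, 24 had an even one (85.7%). Among 14171 genes counted in at least 20 libraries the median share of even counts was 50%, and 2 genes, this one included, had a share as high as 85.7%. What gives the even counts was not tested.

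Genes that, like ENSBTAG00000047768, were either at 0 or well counted in every library were also counted over the whole table. Of 33 genes with at least 1000 counts in total and at least 10 libraries at 0, 2 genes, this one included, had no library with 1 to 39 counts. These bounds were chosen after the values were seen, and the lowest count of this gene above 0 was 48. That it passed was thus fixed by the choice, and nothing is read from it.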
